A study of Mus musculus with 8 samples.

Results

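The mitosis and spindle genes examined here are 53 genes whose products carry a cell into and through mitosis. They form a list of names with no threshold on a measured value, drawn up when earlier results of these data were known, and were found in the count table by NCBI gene ID. All 53 had counts in every library and all 53 were among the 15257 of 24823 genes that passed the filter on low counts. The genes were grouped by role into cyclins and other genes of mitotic entry, anaphase promotion and separase, Aurora and Polo kinases with the chromosomal passenger complex, the spindle checkpoint, centromere and kinetochore, kinesins, spindle assembly and cytokinesis, and chromosome structure.

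The study asked what the orphan nuclear receptor NR5A2 (LRH-1) does when primordial follicles begin to grow. RNA was sequenced from whole ovaries of mice at postnatal day 4 (PND4) in 8 libraries, 4 labelled CON and 4 labelled cKO, from 4 animals of each genotype. Animals labelled cKO were *Nr5a2* f/f, Amhr2-cre Tg/+, and animals labelled CON were littermates with the genotype *Nr5a2* f/f, Amhr2-cre +/+, so both groups carried the floxed alleles and only the cKO group carried Cre. All were on the C57BL/6 background. The *Amhr2* promoter drives Cre in granulosa cells at least from the primordial follicle onward. The study cites reports that this Cre allele is already expressed in the female gonad of the embryo. *Amhr2* is also transcribed in the ovarian surface epithelium. Deletion is therefore directed to cells that express *Amhr2* or did so earlier, and not to oocytes, vessels or blood cells. The libraries hold RNA of all cells of the ovary, and fewer dividing cells cannot be told apart from less mitotic RNA per dividing cell.

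The reads assigned to genes ranged from 14649243 to 29066847 over the libraries. Values are given as reads scaled to library size (CPM, computed after TMM scaling), and differences as log2 fold changes of cKO over CON from the quasi-likelihood test of edgeR, with its standard error (SE) and with p adjusted by Benjamini-Hochberg over all 15257 genes. *Nr5a2* itself was higher in every library labelled cKO (23.1 to 31.0 CPM) than in every library labelled CON (12.2 to 18.5 CPM), with a log2 fold change of 0.82 (adjusted p = 0.0128 in edgeR, SE 0.13). The gene-level count takes in exons outside the deleted exons 4 and 5 and therefore does not check the genotype, so the groups are called by their labels. Markers of other cells also differed between libraries. All 18 oocyte markers had a positive log2 fold change (median 0.56). An adjusted p under 0.05 was reached by 3 of 18 in edgeR, against 6.92% of all genes. CON 1 and CON 3 stood above the others in the 7 of 14 neutrophil markers that could be tested (mean deviation 1.43 and 2.03 on the log2 scale). CON 4 did so in 3 of 8 fat cell markers (3.56). Of 12 granulosa markers 9 had a positive log2 fold change (median 0.14) and none passed in edgeR. At an unadjusted p under 0.05 in edgeR 1 was lower and 2 were higher, against 13.3% and 15.5% of all genes. *Amhr2* itself, whose promoter drives Cre, was lower in every cKO library (48.7 to 79.9 CPM) than in every CON library (81.9 to 112 CPM), at -0.59 (SE 0.16, edgeR adjusted p = 0.0539). The log2 fold change was negative in 7 of 7 smooth muscle markers (median -0.87), 9 of 9 endothelial markers (-0.18) and 9 of the 10 red cell lineage markers that could be tested (-3.33 to 0.33, 1 passing in edgeR), and positive in 14 of 15 immediate-early genes (0.88). Single libraries weighed on these values. The mean deviation of smooth muscle markers was -1.5 and -1.1 in cKO 1 and cKO 2, but 0.07 and 0.54 in cKO 3 and cKO 4. That of immediate-early genes was 1.86 in cKO 1 and 0.31, -0.39 and -0.13 in cKO 2 to cKO 4. Red cell markers had 1.59 and 1.17 in CON 1 and CON 3, but -0.75 and -0.55 in CON 2 and CON 4. Surface epithelium markers had 0.47, 0.11, -0.38 and -0.24 in cKO 1 to cKO 4, and 7 of the 8 tested had a negative log2 fold change (median -0.05). Stroma markers had -0.28, -0.25, 0.19 and 0.21 in cKO 1 to cKO 4, with 7 of 10 negative (median -0.03). Of 9 macrophage markers 4 were negative and 5 positive (median 0.07). The part of these cells in the values below was not tested.

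Mitosis is driven by cyclin-dependent kinase 1 (CDK1) bound to cyclin A and then cyclin B. Chromosomes condense, the spindle attaches to kinetochores built on CENP-A nucleosomes, and a checkpoint holds anaphase back until every kinetochore is attached. The anaphase-promoting complex then marks securin and cyclin B for destruction, separase opens cohesin, and the midzone of the spindle directs cytokinesis. The genes of this programme are switched on together in G2 phase. The MuvB complex binds a cell cycle homology region (CHR) in their promoters, as part of the repressive DREAM complex in resting cells and with B-MYB and FOXM1 in G2 and M, and the factor NF-Y binds CCAAT boxes upstream of it. In the ovary of the newborn mouse, cells of the surface epithelium, stroma, vessels and growing follicles divide. Oocytes are arrested in meiotic prophase, and the flat pre-granulosa cells of primordial follicles are mostly out of the cycle.

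RefSeq promoter windows, from 250 bases before to 50 after the transcription start in GRCm38.p6, were found for 43 of the 53 genes (45 windows, 2 genes having 2). The other 10 were *Ccna2*, *Incenp*, *Pbk*, *Kif20a*, *Foxm1*, *Aurkb*, *Cdc25c*, *Tpx2*, *Smc4* and *Spc24*. The following stretches of 180 bases, from 150 before the start to 30 after it, belong to genes on which the values below turn. *Spc25*, *Cenpa*, *Ccnb2* and *Cdk1* are shown as genes with lower values in the libraries labelled cKO, and *Bub1*, *Ect2* and *Kif4* as genes with higher values. Capitals mark a CHR element (TTTGAA, its reverse complement TTCAAA, or TTCGAA) or a CCAAT box (CCAAT or its reverse complement ATTGG), and each sequence is written 5′ to 3′ on the strand of its gene. In GRCm38 the stretches lie at chr2:69206184-69206363 on the minus strand (*Spc25*), chr5:30666736-30666915 on the plus strand (*Cenpa*), chr9:70421525-70421704 on the minus strand (*Ccnb2*), chr10:69352883-69353062 on the minus strand (*Cdk1*), chr2:127831830-127832009 on the minus strand (*Bub1*), chr3:27153825-27154004 on the minus strand (*Ect2*) and chrX:100625915-100626094 on the plus strand (*Kif4*). Each stretch is promoter up to the start and then the first bases of the first exon.
Spc25: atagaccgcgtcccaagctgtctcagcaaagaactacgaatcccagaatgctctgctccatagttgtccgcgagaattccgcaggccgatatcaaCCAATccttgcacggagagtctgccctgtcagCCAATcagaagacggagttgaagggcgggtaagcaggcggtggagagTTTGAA
Cenpa: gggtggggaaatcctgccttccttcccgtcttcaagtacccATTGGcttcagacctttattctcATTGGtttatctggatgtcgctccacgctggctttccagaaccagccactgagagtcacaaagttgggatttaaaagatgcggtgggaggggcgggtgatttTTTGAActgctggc
Ccnb2: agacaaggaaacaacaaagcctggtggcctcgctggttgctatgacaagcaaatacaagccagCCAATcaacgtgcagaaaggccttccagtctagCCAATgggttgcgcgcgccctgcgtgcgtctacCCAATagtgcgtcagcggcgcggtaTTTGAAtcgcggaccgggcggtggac
Cdk1: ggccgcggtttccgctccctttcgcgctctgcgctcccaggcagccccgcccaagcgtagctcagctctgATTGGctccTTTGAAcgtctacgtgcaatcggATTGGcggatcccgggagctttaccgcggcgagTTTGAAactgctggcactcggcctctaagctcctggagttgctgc
Bub1: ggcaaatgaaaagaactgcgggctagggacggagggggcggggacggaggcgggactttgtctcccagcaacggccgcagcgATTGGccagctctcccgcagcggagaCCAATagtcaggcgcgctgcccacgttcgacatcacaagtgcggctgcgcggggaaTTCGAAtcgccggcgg
Ect2: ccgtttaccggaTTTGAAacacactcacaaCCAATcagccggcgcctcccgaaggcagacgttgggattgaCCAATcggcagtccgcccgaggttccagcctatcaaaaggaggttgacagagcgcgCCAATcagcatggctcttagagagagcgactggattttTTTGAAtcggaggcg
Kif4: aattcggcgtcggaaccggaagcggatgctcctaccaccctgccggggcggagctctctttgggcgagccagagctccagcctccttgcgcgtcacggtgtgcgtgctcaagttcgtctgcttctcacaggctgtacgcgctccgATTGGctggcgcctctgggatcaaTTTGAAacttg

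Each of the 7 stretches held a CHR element just after or before the start and at least 1 CCAAT box. The first base of the CHR element nearest the start lay at 24 in *Spc25*, 16 in *Cenpa*, 4 in *Ccnb2*, -15 in *Cdk1*, 14 in *Bub1*, 15 in *Ect2* and 19 in *Kif4*, counted in bases from the start. *Ect2* also had a window at another annotated start, from which the same element began at 39. *Ccnb2* had 3 CCAAT boxes spaced 33 and 33 bases apart, *Ect2* had 3 spaced 41 and 56 bases apart, *Spc25* and *Cdk1* had a pair 32 bases apart, *Bub1* a pair 26 and *Cenpa* a pair 23 bases apart, and *Kif4* had a single box. *Bub1* alone of the 7 carried the form TTCGAA.

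Over all 45 windows, 80% held a CHR element on either strand, against 19.2% of the 32851 windows in the RefSeq table and 13.9% of the 15333 windows of genes tested here. A CHR element lying wholly within 50 bases of the start was found in 75.6% of the members' windows and 5.31% of all windows. A CCAAT box was found in 71.1% against 37.4%, at least 2 boxes in 46.7% against 11.7%, and both a box and a CHR element in 66.7% against 7.52%. For 35 S phase genes, 32 windows of 27 genes were found, and a CHR element was found in 18.8% and a CCAAT box in 53.1%. The share with a CHR element was similar for members lower and higher in cKO, but the windows are too few to show whether it differs by direction. Of the 6 windows of members that were lower in cKO at an unadjusted p under 0.05, 83.3% held a CHR element, and of the 7 windows of members that were higher, 85.7%. The 7 windows belong to 6 genes, and the lower members *Ccna2*, *Pbk* and *Aurkb* had no window. These are matches of letters, not measured binding.

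**Figure D1:**
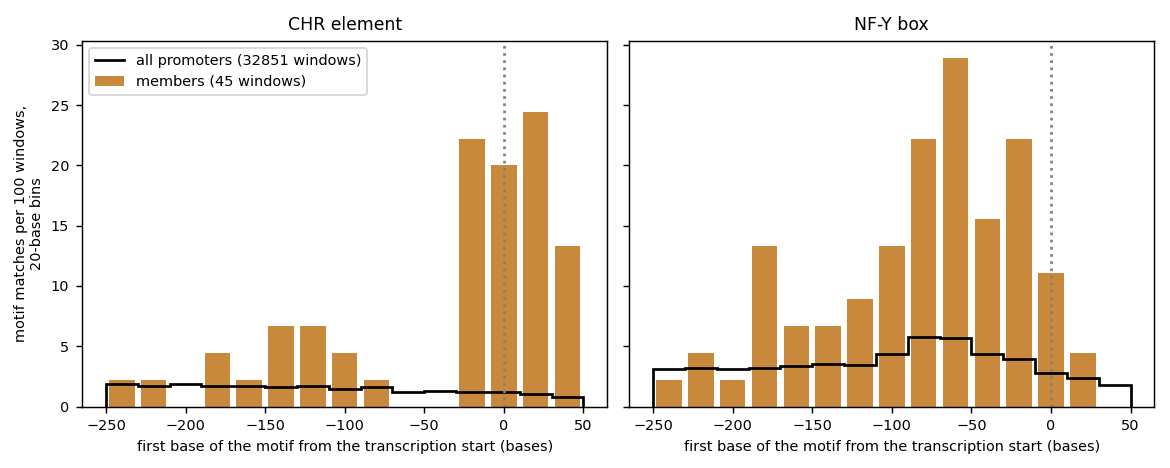
Position of CHR elements (left) and CCAAT boxes, bound by NF-Y (right), in the promoters of the mitosis and spindle genes. The x axis gives the first base of each match from the transcription start in bases, the y axis the matches per 100 windows in bins of 20 bases, with bars for the 45 members' windows and the black line for all 32851 windows. The members' CHR elements gather around the start and their CCAAT boxes before it, where all windows show a shallow line.

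No mitosis or spindle gene changed by 1.5-fold between the groups. At an adjusted p under 0.05 with a fold change of at least 1.5, 0 of 53 were called by edgeR, against 1.41% of all genes tested. Without the fold change threshold 1 of 53 passed (1.89%), against 6.92% of all genes, and that gene, *Spc25*, was lower in the libraries labelled cKO. By direction, 1 of 53 was lower against 3.28% of all genes, and 0 of 53 were higher against 3.64%. At an unadjusted p under 0.05 there were 15 members (28.3%) against 28.8% of all genes, with 9 lower (17.0%) against 13.3% and 6 higher (11.3%) against 15.5%. The members were therefore called no more often than other genes. Other tools passed more members and also more of all genes. DESeq2 passed *Aurkb*, *Cenpa*, *Ect2*, *Pbk* and *Spc25* at an adjusted p under 0.05, 5 of 53 against 15.8% of all genes, limma-voom passed *Aurkb*, *Pbk* and *Spc25*, 3 of 53 against 8.30%, and limma-voom with quality weights passed *Aurkb*, *Cenpa*, *Pbk*, *Pttg1* and *Spc25*, 5 of 53 against 16.6%.

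The log2 fold changes of the 53 members lay between -0.31 and 0.32, with a median of -0.03, and 30 were negative. The median over all genes was -0.00047. The groups did not overlap for 7 members (13.2%) against 18.0% of all genes. *Spc25*, *Aurkb*, *Pbk*, *Cenpa*, *Nuf2* and *Ncaph* had all 4 values of the libraries labelled cKO below all 4 labelled CON (6 of 53, 11.3%, against 9.10% of all genes), and *Bub1* had all 4 above (1 of 53 against 8.93%). The split by direction depended on the scaling. With upper quartile factors 12 members were lower and 3 higher at an unadjusted p under 0.05, and with library size alone 5 were lower and 8 higher. The median of the members was -0.06 and 0.0026 in those fits, while the median of all genes moved to -0.03 and 0.03. Shares of all genes at an unadjusted p were counted only in the edgeR fit of all libraries with TMM scaling. Whether the members' split departed from that of all genes under other settings was therefore not tested.

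**Figure D2:**
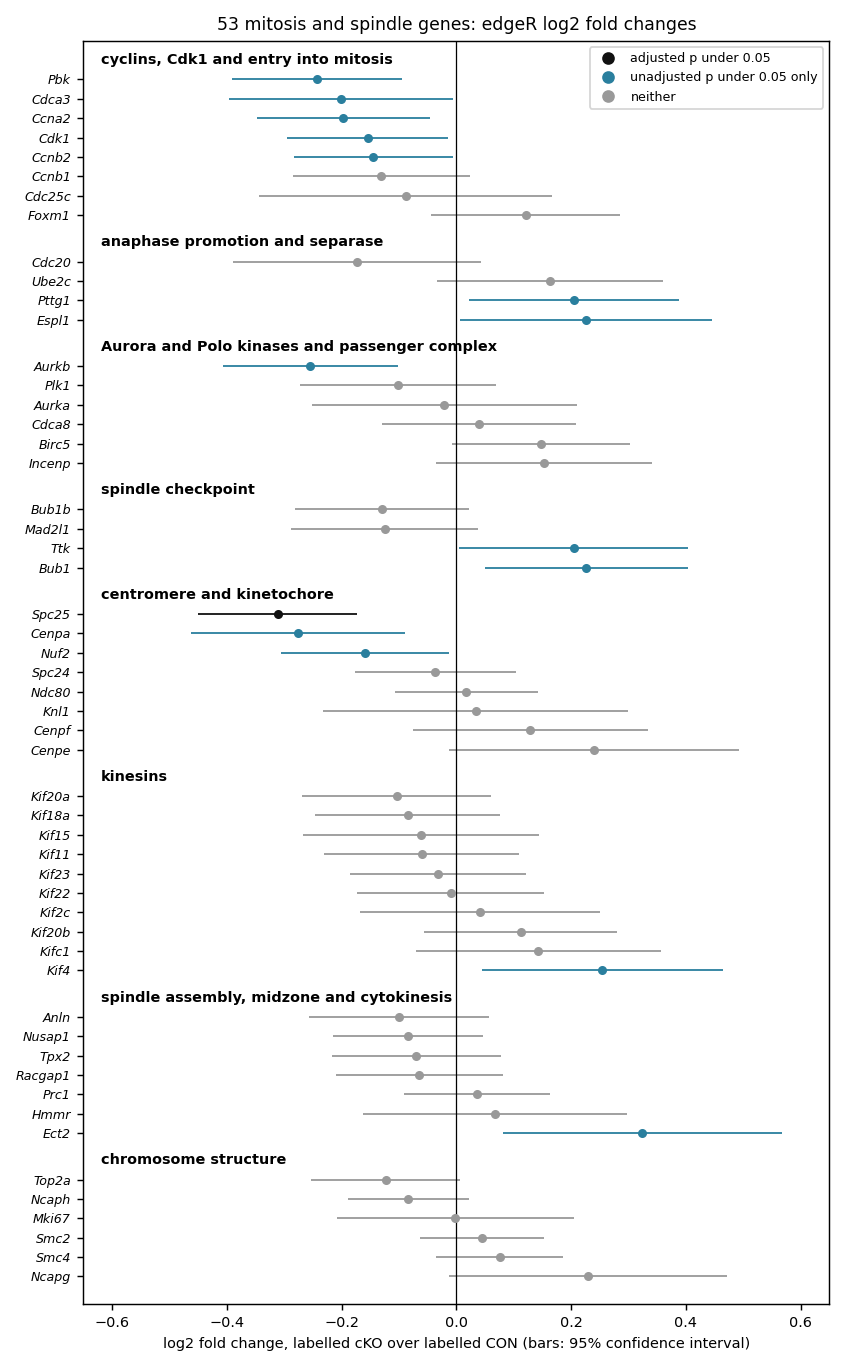
Log2 fold change of each of the 53 genes, libraries labelled cKO over CON, by role. Points are edgeR estimates and bars their 95% confidence intervals. *Spc25* (-0.31) is the only gene with an adjusted p under 0.05, and all 53 estimates lie between -0.31 and 0.32.

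Among the genes of mitotic entry, 7 of 8 had a negative log2 fold change (median -0.15), against 7642 of all 15257 genes. At an unadjusted p under 0.05 in edgeR 5 of the 8 were lower, against 13.3% of all genes. None passed the adjusted test in edgeR. The count of 7 of 8 was the same under each of the 19 alternatives, but the 5 became 2 with library size alone, without the length trend, and when CON 3, cKO 2 or CON 1 and CON 3 were left out, and 1 without CON 2 or without cKO 1 and cKO 2. *Pbk*, a mitotic kinase also called TOPK, had 40.6, 46.9, 44.5 and 40.3 CPM in the libraries CON 1 to CON 4 and 34.3, 37.5, 36.0 and 38.2 CPM in the libraries cKO 1 to cKO 4. Every cKO value was below every CON value, with a log2 fold change of -0.24 (adjusted p = 0.0552 in edgeR, SE 0.07). *Ccna2*, which encodes cyclin A2, had 116, 135, 127 and 109 CPM in CON and 106, 101, 111 and 107 CPM in cKO. Its groups overlapped only through CON 4, which was below cKO 3, and the log2 fold change was -0.20 (adjusted p = 0.0929 in edgeR, SE 0.07).

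*Cdk1*, the kinase itself, had 98.5, 102, 106 and 88.4 CPM in CON and 82.5, 88.5, 93.0 and 90.4 CPM in cKO. CON 4 again lay among the cKO values, and the log2 fold change was -0.15 (adjusted p = 0.141 in edgeR, SE 0.06). *Ccnb2*, for cyclin B2, had 60.1, 68.2, 64.3 and 57.0 CPM in CON and 58.3, 54.5, 57.5 and 55.5 CPM in cKO, with a log2 fold change of -0.14 (adjusted p = 0.158 in edgeR, SE 0.06). With the length trend removed, the log2 fold change of *Ccnb2* was -0.03 (SE 0.07, edgeR adjusted p = 0.786). *Ccnb1*, for cyclin B1, had 68.0, 76.8, 77.4 and 64.0 CPM in CON and 67.3, 63.0, 68.2 and 62.9 CPM in cKO. CON 2 and CON 3 were above every cKO library for both B cyclins and CON 4 was not for either, and the log2 fold change of *Ccnb1* was -0.13 (95% interval -0.29 to 0.02, edgeR adjusted p = 0.240). *Foxm1*, the transcription factor of the G2 programme, was the exception in sign, with 55.4, 59.4, 58.4 and 48.4 CPM in CON, 62.1, 63.5, 60.4 and 55.0 CPM in cKO and a log2 fold change of 0.12 (95% interval -0.04 to 0.28, edgeR adjusted p = 0.307). *Cdca3*, an adaptor that triggers destruction of the WEE1 kinase, had -0.20 (SE 0.09) as its log2 fold change. *Cdc25c*, the phosphatase that activates CDK1, had one of -0.09 (SE 0.11) at only 8.30 to 10.8 CPM.

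Of 4 genes of anaphase 3 had a positive log2 fold change (median 0.18). At an unadjusted p under 0.05 in edgeR 2 of the 4 were higher, against 15.5% of all genes. None passed the adjusted test in edgeR. The 2 became 0 with upper quartile factors and without CON 3, CON 4 or cKO 2, and 3 without cKO 4. They became 1 with quality weights, when CON 2, cKO 1 or cKO 3 was left out, without CON 1 and CON 3, and without cKO 1 and cKO 2. *Pttg1*, for the separase inhibitor securin, had 28.9, 23.9, 24.1 and 25.6 CPM in CON and 26.7, 31.7, 30.7 and 28.9 CPM in cKO. CON 1 lay above cKO 1, so the groups overlapped, and the log2 fold change was 0.20 (adjusted p = 0.136 in edgeR, SE 0.08). *Espl1*, for separase itself, had 0.23 (SE 0.10) as its log2 fold change and *Ube2c*, for the ubiquitin-conjugating enzyme of the anaphase-promoting complex, one of 0.16 (SE 0.09). *Cdc20*, the activator of that complex, had 74.1, 85.7, 78.4 and 65.7 CPM in CON and 76.9, 59.7, 69.8 and 62.9 CPM in cKO, with a log2 fold change of -0.17 (95% interval -0.39 to 0.04, edgeR adjusted p = 0.266).

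In the chromosomal passenger complex the kinase had a negative log2 fold change and its 3 partners had positive ones, none of which passed the adjusted test in edgeR. *Aurkb*, for Aurora B, which corrects faulty attachments of kinetochores, had 49.1, 54.0, 54.1 and 45.3 CPM in CON and 39.9, 42.8, 43.8 and 43.5 CPM in cKO. The groups did not overlap, and the log2 fold change was -0.25 (adjusted p = 0.0527 in edgeR, SE 0.07), just outside the threshold. It was inside with DESeq2 (adjusted p = 0.0184), and over all alternatives the adjusted p ran from 0.0184 to 0.182. *Birc5*, for the partner protein survivin, had 62.1, 61.7, 64.4 and 51.5 CPM in CON and 67.4, 67.6, 66.9 and 63.5 CPM in cKO, with a log2 fold change of 0.15 (95% interval -0.01 to 0.30, edgeR adjusted p = 0.192). The scaffold *Incenp* had 0.15 (SE 0.08) as its log2 fold change and the fourth subunit *Cdca8*, for borealin, one of 0.04 (SE 0.08).

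Because subunits of a complex are read from the same library, their ratio needs no scaling for library size. A relation to transcript length, given below, does not cancel where the genes differ in length. *Aurkb* (2946 bases of exon) is shorter than *Birc5* (3402), *Incenp* (4329) and *Cdca8* (5177). These ratios were chosen after the values were seen and were not tested. Reads of *Aurkb* per read of *Birc5* were 0.792, 0.875, 0.840 and 0.880 in CON and 0.592, 0.634, 0.653 and 0.684 in cKO, with a gap between the groups. The ratio to *Incenp* (0.499 to 0.596 in CON, 0.369 to 0.480 in cKO) and to *Cdca8* (0.913 to 0.964 in CON, 0.651 to 0.846 in cKO) also did not overlap.

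The other kinases of the group showed no separation. *Plk1*, for Polo-like kinase 1, had 48.4, 51.4, 50.9 and 41.6 CPM in CON and 47.9, 41.4, 45.7 and 44.0 CPM in cKO, with a log2 fold change of -0.10 (95% interval -0.27 to 0.07, edgeR adjusted p = 0.408). *Aurka*, for Aurora A of the spindle poles, had a log2 fold change of -0.02 (95% interval -0.25 to 0.21).

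In the spindle checkpoint 2 of 4 genes had a positive and 2 a negative log2 fold change. *Bub1*, a kinase that recruits checkpoint proteins to kinetochores, had 44.1, 45.4, 45.1 and 38.6 CPM in CON and 52.1, 56.9, 46.6 and 47.1 CPM in cKO. Every cKO value was above every CON value, although CON 2 and cKO 3 lay close together, and the log2 fold change was 0.23 (adjusted p = 0.0991 in edgeR, SE 0.08). *Ttk*, for the checkpoint kinase MPS1, had 0.20 (SE 0.09) as its log2 fold change. *Mad2l1* and *Bub1b*, for the inhibitors MAD2 and BUBR1, had -0.12 (SE 0.07) and -0.13 (SE 0.07). None of the 4 passed the adjusted test in edgeR.

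The centromere and kinetochore held the single gene that passed. *Spc25* (chromosome 2, 69193895 to 69206213) encodes a subunit of the NDC80 complex, the coupler between kinetochore and microtubule. It had 49.8, 54.7, 53.8 and 49.2 CPM in CON and 42.7, 45.0, 40.4 and 39.1 CPM in cKO, from 566 to 1556 reads per library. All 4 cKO values were below all 4 CON values, with means of 51.9 ± 2.8 and 41.8 ± 2.6 CPM (SD, n = 4 in each group). *Spc25* fell by 0.31 on the log2 scale (SE 0.06, 95% interval -0.45 to -0.17, edgeR adjusted p = 0.0272), or by 19.4%. The adjusted p rose above the threshold without CON 2 (0.0957), CON 3 (0.101), CON 4 (0.0546) or cKO 3 (0.0646), without CON 1 and CON 3 together (0.0943), and with the length trend removed (0.0563), while the log2 fold change stayed between -0.39 and -0.27 over all alternatives.

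The 3 partners of SPC25 in the same complex did not pass. The CPM of *Spc24* ranged from 41.8 to 49.6 in CON and from 43.7 to 47.0 in cKO (log2 fold change -0.04, 95% interval -0.18 to 0.10), and *Ndc80* 34.7 to 38.0 and 35.6 to 39.0 CPM (0.02, -0.11 to 0.14). *Nuf2*, the fourth subunit, had 44.2, 48.8, 50.8 and 44.0 CPM in CON and 39.2, 42.0, 43.5 and 43.6 CPM in cKO, without overlap, and a log2 fold change of -0.16 (adjusted p = 0.142 in edgeR, SE 0.07). In ratios chosen after the values were seen, reads of *Spc25* per read of *Spc24* were 1.07, 1.10, 1.10 and 1.18 in CON and 0.909, 0.970, 0.898 and 0.896 in cKO. The ratio to *Ndc80* also separated the groups (1.38 to 1.46 against 1.09 to 1.26), whereas the ratio to *Nuf2* overlapped (1.06 to 1.13 against 0.897 to 1.09). *Spc25* (3188 bases of exon) is shorter than *Ndc80* (6493) and *Nuf2* (6341) and longer than *Spc24* (2573), and the part of length in these ratios was not tested.

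*Cenpa*, for the centromeric histone H3 variant, had 44.1, 54.9, 48.3 and 44.9 CPM in CON and 41.4, 37.3, 43.2 and 36.7 CPM in cKO. The groups did not overlap, although cKO 3 lay close under CON 1, and the log2 fold change was -0.28 (adjusted p = 0.0689 in edgeR, SE 0.08). *Cenpe* and *Cenpf*, a kinetochore motor and a large protein of the kinetochore corona, had 0.24 (SE 0.11) and 0.13 (SE 0.09), and the scaffold *Knl1* had 0.03 (SE 0.12). Over the 8 genes 4 were negative and 4 positive.

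**Figure D3:**
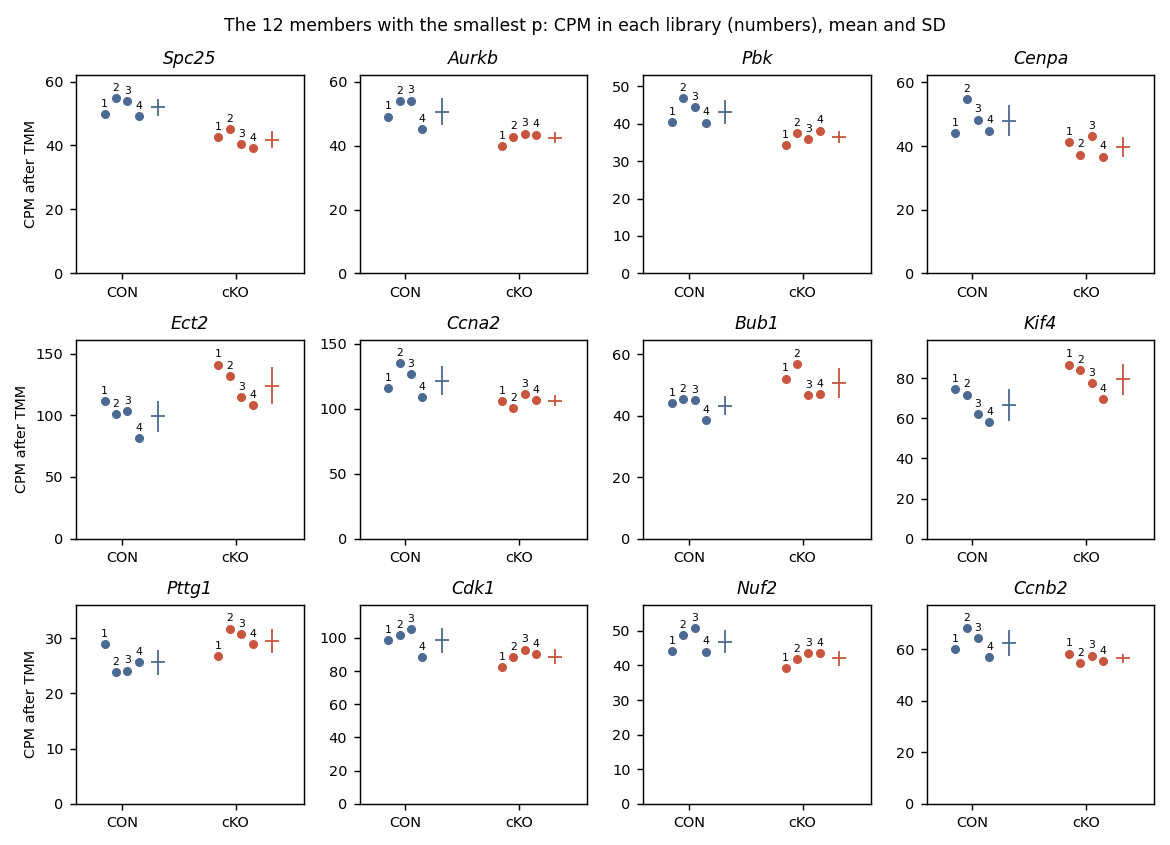
CPM after TMM scaling (y axis, from 0) of the 12 genes with the smallest p, in the libraries labelled CON (blue) and cKO (red). Each point is 1 library with its number, and the cross beside each group is the mean with the SD (n = 4). The groups are apart for *Spc25*, *Aurkb*, *Pbk*, *Cenpa*, *Nuf2* and *Bub1* and overlap in the other panels.

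Of the 10 kinesins 6 had a negative and 4 a positive log2 fold change, from -0.10 to 0.25. *Kif4*, the chromokinesin that works with PRC1 at the midzone, had 74.5, 71.9, 62.2 and 58.0 CPM in CON and 86.8, 84.0, 77.8 and 69.6 CPM in cKO. Only cKO 4 fell within the CON range, and the log2 fold change was 0.25 (adjusted p = 0.112 in edgeR, SE 0.09). The other 9 had unadjusted p-values above 0.05, among them *Kif11* (-0.06, SE 0.08), the motor that pushes spindle poles apart, *Kif23* (-0.03, SE 0.07), the midzone motor of centralspindlin, and *Kif2c* (0.04, SE 0.09), a depolymerase of microtubules at centromeres.

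Among 7 genes of spindle assembly, midzone and cytokinesis 4 had a negative and 3 a positive log2 fold change. *Ect2* encodes the exchange factor that activates RhoA at the cleavage furrow, and it had 112, 101, 103 and 81.3 CPM in CON and 141, 132, 115 and 109 CPM in cKO. Only cKO 4 lay within the CON range, and the log2 fold change of 0.32 was the largest of the 53 (SE 0.11, edgeR adjusted p = 0.0900). *Racgap1*, its partner at the midzone, had a log2 fold change of -0.06 (95% interval -0.21 to 0.08), and *Prc1*, the bundler of midzone microtubules, 0.04 (-0.09 to 0.16). *Anln*, *Nusap1*, *Tpx2* and *Hmmr* lay between -0.10 and 0.07.

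The 6 genes of chromosome structure gave 3 negative and 3 positive values. *Mki67*, for the proliferation marker KI-67, had 234, 242, 201 and 178 CPM in CON and 228, 199, 214 and 214 CPM in cKO. CON 1 and CON 2 lay above the 4 cKO libraries, CON 3 among them and CON 4 below them, and the log2 fold change was -0.0022 (95% interval -0.21 to 0.20, edgeR adjusted p = 0.991), a sign that turned with library size alone (0.03). *Top2a*, for topoisomerase II alpha, had 269, 293, 257 and 253 CPM in CON and 260, 234, 243 and 247 CPM in cKO, with a log2 fold change of -0.12 (95% interval -0.25 to 0.01, edgeR adjusted p = 0.190). The condensin subunits *Smc2* (0.05, SE 0.05), *Smc4* (0.08, SE 0.05), *Ncaph* (-0.08, SE 0.05) and *Ncapg* (0.23, SE 0.11) did not pass, although *Ncaph* was lower in every cKO library (55.2 to 57.0 CPM) than in every CON library (57.4 to 62.4 CPM).

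Per kilobase of exon, the highest levels over the 8 libraries were those of *Smc4* (39.1 CPM per kb), *Ccnb2* (38.8), *Cdc20* (38.4) and *Ube2c* (32.7), and the lowest those of *Kif18a* (1.68) and *Cdc25c* (1.97). The CPM of all 53 genes summed to 3759 ± 286 in CON and 3744 ± 144 in cKO (SD, n = 4 in each group), a difference far inside the spread between libraries.

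The level of the members differed more between libraries of a group than between the groups. Their group means of the deviation described next differed by -0.0053, against an SD of 0.0888 between libraries of a group. The mean deviation of the 53 genes from their own mean over the 8 libraries, in log2 CPM, was 0.02, 0.11, 0.03 and -0.15 in CON 1 to CON 4 and 0.07, -0.02, -0.00057 and -0.06 in cKO 1 to cKO 4. CON 2 was the highest library for 23 genes and cKO 1 for 16, while CON 4 was the lowest for 29. CON 4 was the lowest of the 8 libraries in every role except mitotic entry, where cKO 4 was lowest (-0.10 against -0.09). CON 4 and cKO 4 were each the highest library for 0 of the 53 genes. The median SD of a member's log2 CPM was 0.14 among the CON libraries and 0.09 among the cKO libraries, against 0.10 and 0.14 over all genes. Without CON 4, 14 members were lower and 1 higher at an unadjusted p under 0.05. The shares of all genes at an unadjusted p were not counted for that fit. In it 0 of 53 passed the adjusted test in edgeR, against 0.865% of all genes. The CPM of the 3 fat cell markers tested summed to 401 in CON 4 and to between 7.61 and 34.5 in the other 7 libraries, and their part in the low mitotic values of CON 4 was not tested.

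**Figure D4:**
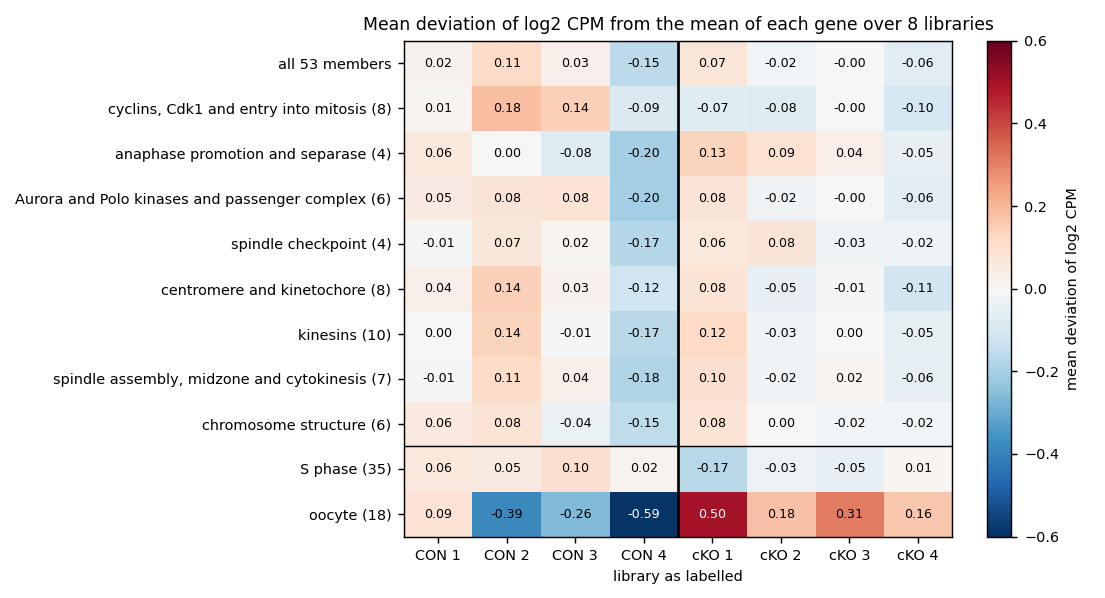
Mean deviation of log2 CPM (colour and printed number) in each library, columns CON 1 to CON 4 and cKO 1 to cKO 4, for all 53 genes, the 8 roles, 35 S phase genes and 18 oocyte markers, with the number of genes in parentheses. CON 4 is low across the roles (-0.15 over all 53), and mitotic entry is the row in which CON 2 and CON 3 stand highest (0.18 and 0.14).

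Another 169 genes of the cell cycle, in 8 lists, were looked at in the same fit. Over all genes tested in edgeR, 3.28% were lower and 3.64% higher at an adjusted p under 0.05. At an unadjusted p under 0.05 these shares were 13.3% and 15.5%. Of 15 further kinases and phosphatases 1 was higher at an adjusted p under 0.05, *Pkmyt1* (0.35, SE 0.09, edgeR adjusted p = 0.0451), whose product inhibits CDK1. Of 17 genes of the anaphase-promoting complex 1 was lower, *Ube2s* (-0.24, SE 0.06, adjusted p = 0.0479), for the enzyme that extends its ubiquitin chains. Both calls were lost when any 1 library other than CON 1 or cKO 1 was left out, and with the length trend removed. That of *Pkmyt1* was also lost with upper quartile factors, and that of *Ube2s* with RLE factors, library size alone, no filter beyond 1 count and without cKO 1. Without CON 1, 1 of the kinases and phosphatases was lower and 1 higher, and 3 genes of the complex were lower. Of 16 checkpoint and outer kinetochore genes none passed in edgeR (3 at an unadjusted p under 0.05, all higher), the smallest p being that of *Zw10* (0.22, adjusted p = 0.0599), a subunit of the complex that brings dynein to kinetochores. Of 18 further genes of condensin, cohesin and regulators of cohesin none passed in edgeR (1 lower and 1 higher at an unadjusted p under 0.05). *Esco2*, for an acetyltransferase of cohesin, had the smallest p (0.16, adjusted p = 0.103 in edgeR).

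Of 20 genes of the inner centromere and of CENP-A loading 3 passed in edgeR. *Hjurp*, for the chaperone that places CENP-A, had 16.4, 14.5, 12.6 and 14.4 CPM in CON and 20.3, 22.9, 18.3 and 20.1 CPM in cKO, and rose by 0.49 (SE 0.10, adjusted p = 0.0273). *Cenpt* rose by 0.27 (adjusted p = 0.0495) and *Cenpb*, for a protein that binds centromeric satellite DNA, fell by 0.20 (adjusted p = 0.0495). None of the 20 passed without CON 2, CON 3, CON 4 or cKO 2. The call of *Cenpb* was also lost without cKO 1, cKO 3 or cKO 4, with library size alone, with no filter beyond 1 count and with the length trend removed, and the 2 higher calls became 1 with RLE or upper quartile factors, no filter beyond 1 count, the length trend removed or cKO 3 left out. With quality weights 2 were lower and 3 higher. Chaperone and cargo thus had opposite signs. Reads of *Cenpa* per read of *Hjurp*, a ratio chosen after the values were seen and not tested, were 2.70, 3.79, 3.83 and 3.12 in CON and 2.04, 1.63, 2.36 and 1.82 in cKO. Of 34 further spindle and midzone genes 2 passed in edgeR, *Haus7* of the augmin complex higher by 0.42 (adjusted p = 0.0258) and *Shcbp1*, a midzone protein, lower by a log2 fold change of -0.35 (adjusted p = 0.0479). None of the 34 passed without CON 2, CON 3, CON 4, cKO 2 or cKO 3. Without CON 1 the count was 1 lower and 4 higher, without cKO 4 0 lower and 4 higher, with DESeq2 2 lower and 5 higher and with quality weights 3 lower and 4 higher, and the call of *Shcbp1* was lost with library size alone, no filter beyond 1 count or the length trend removed. Of the 14 genes of the B-MYB, MuvB and DREAM complexes that act on CHR elements and of NF-Y, *Mybl2*, for B-MYB, was the 1 that passed (0.28, SE 0.07, edgeR adjusted p = 0.0459). None of the 14 passed with upper quartile factors, with no filter beyond 1 count, with the length trend removed, or with any 1 library but CON 1 or cKO 4 left out, while 2 were higher without CON 1, with DESeq2 and with limma-voom, 1 was lower and 1 higher without cKO 4, and 2 were lower and 2 higher with quality weights.

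Of 35 S phase genes 28 had a negative log2 fold change (median -0.12). Their mean deviation in log2 CPM was 0.06, 0.05, 0.10 and 0.02 in CON 1 to CON 4. In cKO 1 to cKO 4 it was -0.17, -0.03, -0.05 and 0.01, so cKO 1 was lowest and cKO 4 was close to CON 4. At an unadjusted p under 0.05 in edgeR 14 were lower and 1 higher, against 13.3% and 15.5% of all genes. At an adjusted p under 0.05 in edgeR 4 were lower and 1 higher, against 3.28% and 3.64%. The lower genes were *Ccne2*, for cyclin E2 (-0.60, adjusted p = 0.0188), and 3 genes of nucleotide supply, *Tk1* (-0.41, adjusted p = 0.0409), *Rrm2* (-0.33, adjusted p = 0.0369) and *Tyms* (-0.28, adjusted p = 0.0155). *Pole*, for the catalytic subunit of DNA polymerase epsilon, was higher (0.34, adjusted p = 0.0410). The number negative was 26 to 29 over the 19 alternatives. The count that passed fell to 0 without CON 2, CON 3 or CON 4, or without CON 1 and CON 3. It was 1 lower and 0 higher without cKO 2, 2 lower and 0 higher without cKO 3, 3 lower and 0 higher with the length trend removed, and 9 lower and 1 higher with DESeq2 and with quality weights.

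Log2 fold changes in these libraries were related to the length of the transcript. Among all genes tested, the median was -0.05 for genes of the lengths of the 18 shortest members (1531 to 4307 bases of exon), 0.02 for those of the next 18 (4329 to 6341 bases) and 0.07 for those of the 17 longest (6493 to 15433 bases). The members' medians were -0.12, 0.04 and -0.0022 in that order. The 18 shortest members held 14 negative values. At an unadjusted p under 0.05 in edgeR 6 of these 18 were lower and 1 higher, against 13.3% and 15.5% of all genes of any length. With the trend of each library's CPM with length removed, a choice made after seeing the data, the members' median stayed at -0.03. In that fit 9 were lower and 7 higher at an unadjusted p under 0.05, and 0 of 53 passed the adjusted test in edgeR, against 2.47% of all genes. *Ccnb2* moved from -0.14 to -0.03, *Pbk* from -0.24 to -0.15, *Cdc20* from -0.17 to -0.09 and *Plk1* from -0.10 to -0.03. Of the members given in every library, *Cenpa*, *Bub1*, *Pttg1*, *Cdk1*, *Nuf2*, *Mki67*, *Top2a* and *Birc5* moved away from 0 instead, *Top2a* from -0.12 to -0.19 and *Pttg1* from 0.20 to 0.29.

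**Figure D5:**
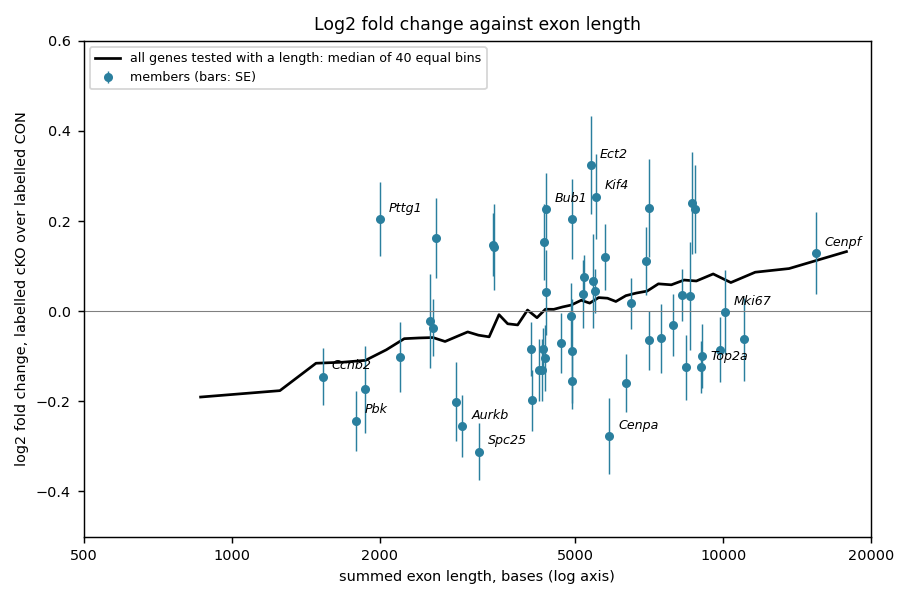
Log2 fold change of the libraries labelled cKO over CON (y axis) against summed exon length in bases (x axis, log scale). Points are the 53 genes with SE bars and the line joins medians of 40 equal bins of all genes with a length. The line rises from below 0 at short genes to above 0 at long ones, and *Spc25*, *Cenpa* and *Aurkb* lie below it while *Ect2*, *Kif4* and *Bub1* lie above it.

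Exons of 11 members overlap those of another gene in the count table, mostly on the opposite strand, and the strand setting of the counting was not stated, so their counts may hold reads of that neighbour. Among the genes with the smallest p these were *Ccna2*, with *Exosc9* over 428 bases, and *Kif4*, with *Pdzd11* over 683 bases. *Kif4*, *Ccnb1*, *Ccnb2* and *Kif22* also have annotated pseudogenes to which reads could have been lost. *Spc25* and *Aurkb* have no such overlap.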

How the data were processed

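Whole ovaries of PND4 mice were sequenced from libraries made with a stranded mRNA kit. The authors removed reads with a quality score under 20, aligned paired reads to GRCm38 (mm10) with STAR and counted them per gene with featureCounts. The versions, the annotation and the strand setting are not given in the sources used here. The deposited read counts per gene were analysed as they stand. A second deposited table with the authors' CPM and their DESeq2 comparison (mean level, fold change, error and p-values) was not used. The table's columns name the genotype but not the sample title, so libraries carry column numbers. Of 24823 gene IDs, 99.7% were joined to a symbol through RefSeq, and 4956 had 0 counts everywhere.

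Counts of cKO were tested against CON, with no covariate, by the robust quasi-likelihood F test of edgeR 4.0.16 under R 4.3.3, after filterByExpr and TMM scaling. A gene counted as called when its p, adjusted by Benjamini-Hochberg, was under 0.05 and its fold change 1.5 or more, as in the study's methods. The SE was taken as the absolute log2 fold change divided by the square root of F. Deviations used log2 CPM (prior count 2). Exon length is the union of exons in the GENCODE annotation of GRCm38, and 96.7% of tested genes had one. No pair of libraries agreed within counting noise (chi-square per gene at least 3.77). Alternatives were other scalings (RLE, upper quartile, library size), other filters (none beyond 1 count, at least 10 counts in every library), DESeq2 1.42.0, limma-voom (limma 3.58.1) with and without quality weights, and leaving libraries out. The removal of the length trend (loess, span 0.5, degree 1) was added after seeing the data. The scripts were tested on simulated data.

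The members, lists, alternatives and rules were chosen with earlier results of these data known. Values in every library are given for the 12 members with the smallest p and for *Mki67*, *Top2a*, *Cdk1*, *Ccnb1*, *Plk1*, *Aurkb*, *Birc5*, *Cdc20* and *Foxm1*. Of each other list, the genes with an adjusted p under 0.05 are named, or else the 1 with the smallest p. Ratios between members, and the ranges in each group given for *Spc24*, *Ndc80* and *Ncaph*, were chosen after their values were seen.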

Additional observations from a re-analysis of the deposited data

Results flagged for a closer look

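In 4 of the 106 groups of 4 libraries formed by the 53 genes and the 2 genotypes, 1 library lay far from the other 3 by Dixon's test at the 95% level, where chance gives about 5 percent of groups. *Aurka* had 27.7 CPM in CON 4, against 35.1 to 36.2 CPM in the other CON libraries. The other 3 were low values of cKO 4. *Birc5* had 63.5 CPM there, against 66.9 to 67.6 CPM in the other cKO libraries, *Kif18a* had 15.1 CPM against 16.3 to 16.4 CPM, and *Kifc1* had 57.2 CPM against 69.9 to 71.3 CPM.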

How the results depend on the processing

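Over the 19 alternatives, the log2 fold changes of the 19 members given in every library kept sign and side of the threshold in 334 of 361 values, lost the threshold in 6, gained it in 14 and turned sign in 7. All 7 turns were of *Mki67*, which had 0.031 with library size alone, 0.0077 with limma-voom, 0.012 with quality weights and 0.016 without CON 1 and CON 3. Leaving out 1 library gave it -0.080 to 0.064. The 6 losses were of *Spc25*, as given above. The number of members with an adjusted p under 0.05, 1 in edgeR, was 3 with upper quartile factors, 2 with at least 10 counts in every library, 5 with DESeq2, 3 with limma-voom, 5 with quality weights, 0 without CON 1 and CON 3 and 0 with the length trend removed, and 0 to 2 with 1 library left out. With no fold change threshold 1 member was called rather than 0. The 215 genes called among all genes became 398 with DESeq2, 516 with quality weights, 69 without CON 1 and CON 3, 93 with the length trend removed and 1056 with no fold change threshold, and 0 to 407 with 1 library left out. The 0 arose without CON 2 and without CON 3 in edgeR, and DESeq2 was not run on those subsets. The median of the members moved by less than the SD between libraries (0.0888) throughout, from -0.09 without CON 4 to 0.02 without CON 2. The cause of these shifts was not tested. No paired analysis was possible because the groups share no replicate number in the labels and the columns carry no litter or batch. The SE of a member lay between 0.05 and 0.12 on the log2 scale. *Spc25* passed in edgeR at -0.31 (SE 0.06), but *Ect2* (0.32, SE 0.11), *Cenpa* (-0.28, SE 0.08) and *Aurkb* (-0.25, SE 0.07) did not. With 4 libraries in each group, differences of the size of the SE were therefore not detectable, and differences several times as large could be missed.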
